A study of Mus musculus with 4 samples.

Results

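The insulin-like growth factor (IGF) genes were followed as 9 named symbols of the 24421 gene symbols in the read count table: the ligands Igf1 and Igf2, the receptor Igf1r, and the binding proteins Igfbp2, Igfbp3, Igfbp4, Igfbp5, Igfbp6 and Igfbp7. The counts came from fibro-adipogenic progenitors (FAPs), stromal cells of skeletal muscle that were sorted as live (PI-) CD31- CD45- Sca1+ cells and divided by the surface protein DPPIV, the product of Dpp4. Wild-type mice had been given a CSF1R inhibitor for 3 weeks, which depletes muscle resident macrophages, and had then returned to a regular diet for 3 days. Every library of both groups carried this treatment, so no untreated sample enters the comparison, and the labels give no strain or age for these mice. DPPIV- and DPPIV+ FAPs of the same 2 mice gave 4 bulk RNA libraries with between 18240110 and 20879405 reads counted on genes (n = 2 mice per group).

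IGF1 and IGF2 are small secreted hormones that act through the receptor tyrosine kinase IGF1R. Outside the cell most of them are held by IGF binding proteins, which can keep the ligand from the receptor, store it in the matrix or carry it, and which proteases cut to set it free. In skeletal muscle the system is best known for driving fibre growth and regeneration, and stromal cells are a known source of IGF1.

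The ligands and Igfbp7 were lower in DPPIV+ than in DPPIV- FAPs, and Igfbp5 and Igfbp6 were higher. Of the 9 genes, 8 reached 2 CPM (reads of a gene scaled to the library total) in at least 2 libraries and were tested, and Igfbp2 did not. All 8 passed a threshold of 0.05 on the adjusted p (quasi-likelihood test of edgeR, mouse as a term), 4 higher and 4 lower in DPPIV+ FAPs. Over all 11588 genes tested, 33.0% passed, 15.9% higher and 17.2% lower. In DESeq2's Wald test 7 of the 8 passed, all but Igfbp4, against 16.6% of the tested genes. In 7 of the 8 tested members the DPPIV+ and DPPIV- libraries did not overlap in CPM, and 56.3% of all tested genes did not overlap either. The median log2 fold change was -0.07 over the 8 members and -0.00199 over all tested genes, with members on both sides of 0. Bulk libraries cannot tell fewer cells that express a gene from less of its RNA per cell.

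The labels of the libraries were checked on the sorted genes first. Dpp4 was 10.7-fold higher in DPPIV+ FAPs (fitted log2 fold change 3.41), and Pi16, Cd55, Wnt2 and Anxa3, known from DPPIV+ fibroblasts, were all higher (4 of 4). The 5 FAP genes were counted in all libraries, and all passed the threshold. Pdgfra (log2 fold change -0.38), Dcn (-0.28) and Col1a1 (-0.40) were lower in DPPIV+ FAPs, and Ly6a (0.58) and Cd34 (0.52) were higher. Their summed level was 34007 and 32134 CPM in DPPIV- and 27472 and 28364 CPM in DPPIV+ libraries of mouse 1 and mouse 2. Markers of other cells were counted too, and several lists moved with the groups. Of 6 mural genes 5 were lower in DPPIV+ FAPs and the sum was 121 to 123 CPM in DPPIV- and 51.2 to 63.5 CPM in DPPIV+ libraries. Of 7 macrophage genes 6 were tested and 3 were lower, with sums of 66.9 to 92.4 CPM against 55.8 to 69.1 CPM. Timd4 was counted 3 times in the DPPIV- library of mouse 1 and 0 times in the others. Its product marks only the self-renewing resident macrophages of muscle, and those derived from blood monocytes lack it. Of 5 endothelial genes 4 were lower and only Tek was higher, with 447 ± 27.8 against 168 ± 26.6 CPM (SD, n = 2), and the list sums, set mostly by Tek, were 186 to 251 CPM in DPPIV- and 461 to 504 CPM in DPPIV+ libraries. Of 5 tenocyte genes 4 were higher and Thbs4 was lower, with list sums of 1798 to 2391 CPM against 1902 to 3767 CPM. Pax7, which defines satellite cells, had between 7 and 10 reads per library. Vcam1, another gene of that list, was the only one of the 5 to be tested and was lower, with 88.3 ± 1.38 CPM in DPPIV- and 26.0 ± 3.68 CPM in DPPIV+ FAPs. Of 5 myofibre genes Acta1, Ckm, Myh4 and Tnnt3 were tested and did not pass the threshold, with list sums of 40.7 to 62.8 CPM against 45.5 to 63.9 CPM. Of 6 genes of glia and perineurium 4 were tested, and S100b was lower, with list sums of 30.4 to 33.4 CPM against 25.4 to 31.8 CPM. The part of other cells in the IGF results was not tested.

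Igf1, the main IGF of adult tissue, lies on chromosome 10 of GRCm38 from 87858265 to 87937042 (ENSMUSG00000020053.18). It had 345 CPM in DPPIV- FAPs of mouse 1 and 441 CPM in mouse 2, against 158 and 212 CPM in DPPIV+ FAPs of the same mice. Both DPPIV- libraries were above both DPPIV+ libraries, and mouse 2 was above mouse 1 in each cell type. The log2 fold change was -1.09 (SE, the standard error, 0.07, adjusted p = 3.15e-55), so that the DPPIV- level was 2.13 times the DPPIV+ level. The log2 ratios within the mice, -1.13 and -1.06, were close to each other.

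Igf2, the IGF best known from fetal growth and expressed from the paternal chromosome, lies on chromosome 7 from 142650766 to 142666816 (ENSMUSG00000048583.16). DPPIV- FAPs had 53.8 and 60.0 CPM in mouse 1 and mouse 2, and DPPIV+ FAPs had 23.5 and 19.3 CPM. The groups did not overlap, and the gap was wider in mouse 2 (log2 ratio -1.64) than in mouse 1 (-1.19). The fitted log2 fold change of -1.41 (SE 0.08, adjusted p = 1.15e-61) was within 1 SE of that of Igfbp5 in absolute size, and 4.33% of all tested genes had a larger one. Reads of Igf2 cannot be fully told from those of Gm49394, which shares 3596 exon bases with it on the same strand. Gm49394 was not among the gene symbols counted, so it has no separate count. The antisense gene Igf2os, with 98 shared exon bases, had between 0 and 3 reads per library.

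Igf1r, the receptor kinase for both ligands, lies on chromosome 7 from 67952827 to 68233668 (ENSMUSG00000005533.10). It had 59.3 and 54.9 CPM in DPPIV- and 76.1 and 70.9 CPM in DPPIV+ FAPs of mouse 1 and mouse 2. The DPPIV+ libraries were higher in both mice by nearly the same ratio, 0.36 and 0.37 on the log2 scale. This was a small rise, with a fold of 1.29 (log2 fold change 0.37, SE 0.07, adjusted p = 5.19e-07).

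**Figure D1:**
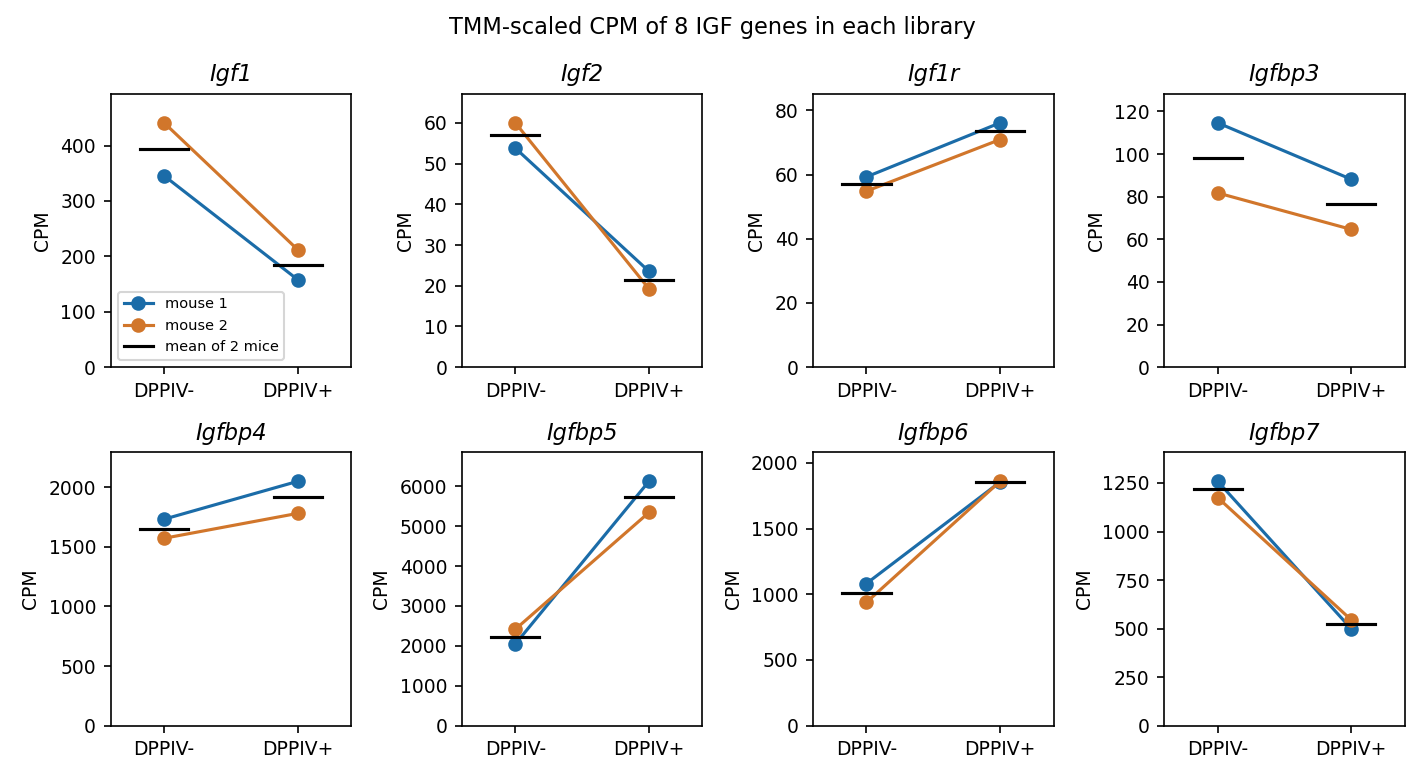
TMM-scaled CPM (y axis, from 0, its scale set for each gene) of the 8 tested genes in DPPIV- and DPPIV+ FAPs, with 1 point per library, lines joining the libraries of a mouse and black bars at the mean of 2 mice. Both lines fall for Igf1, Igf2, Igfbp3 and Igfbp7 and rise for Igf1r, Igfbp4, Igfbp5 and Igfbp6, and the groups overlap only in Igfbp3, where the higher DPPIV+ library (88.1 CPM) lies above the lower DPPIV- library (81.7 CPM).

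Among the binding proteins, Igfbp5 rose most. IGFBP5 binds both IGFs and adheres to extracellular matrix, and its gene lies on chromosome 1 from 72857932 to 72874884 (ENSMUSG00000026185.8). DPPIV- FAPs had 2046 CPM in mouse 1 and 2415 CPM in mouse 2, and DPPIV+ FAPs had 6124 and 5343 CPM. The groups were far apart, and the order of the mice was opposite in the cell types, with log2 ratios of 1.58 in mouse 1 and 1.15 in mouse 2. The log2 fold change was 1.36 (SE 0.08, adjusted p = 5.23e-64), a fold of 2.57. In DESeq2's Wald test the SE of Igfbp5 was 0.29 and its adjusted p was 2.50e-05. By mean CPM, Igfbp5 ranked 23 among the 11588 tested genes, and it took 0.205% and 0.246% of all reads in DPPIV- and 0.605% and 0.526% in DPPIV+ libraries. Of the 5 tenocyte genes 4 rose in the same libraries and Thbs4 fell. Among those that rose were Tnmd (28.8 ± 2.95 to 71.3 ± 25.8 CPM) and Fmod (214 ± 65.1 to 1067 ± 534 CPM). In DPPIV+ FAPs Fmod had 689 CPM in mouse 1 and 1444 CPM in mouse 2, and Tnmd had 53.0 and 89.5 CPM. Igfbp5 was lower in mouse 2 than in mouse 1 there. The part of tenocyte genes in the rise of Igfbp5 and Igfbp6 was not tested.

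Igfbp6, whose product prefers IGF2 to IGF1, lies on chromosome 15 from 102144362 to 102149511 (ENSMUSG00000023046.6). It had 1082 and 939 CPM in DPPIV- and 1855 and 1860 CPM in DPPIV+ FAPs of mouse 1 and mouse 2. The DPPIV+ libraries were almost equal and well above the DPPIV- libraries, with a log2 fold change of 0.88 (SE 0.07, adjusted p = 2.97e-32), a fold of 1.84. The rise in Igfbp6 thus ran opposite to the fall in Igf2.

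Igfbp7 fell most among the binding proteins. Its product binds IGFs only weakly and is known from vessels and stroma, and the gene lies on chromosome 5 from 77349240 to 77408041 (ENSMUSG00000036256.13). DPPIV- FAPs had 1258 and 1175 CPM in mouse 1 and mouse 2, and DPPIV+ FAPs had 499 and 545 CPM. The groups were far apart, with a log2 fold change of -1.22 (SE 0.07, adjusted p = 3.90e-63) and a DPPIV- level 2.33 times the DPPIV+ level. Of the 6 mural genes 5 were lower too. Cspg4 went from 69.7 ± 8.88 to 29.3 ± 9.39 CPM and Notch3 from 22.2 ± 0.757 to 7.34 ± 0.639 CPM (DPPIV- to DPPIV+). Rgs5 fell less (log2 fold change -0.42, SE 0.15), and Myh11 did not pass the threshold (-0.28, SE 0.17). The part of the mural genes in the fall of Igfbp7 was not tested. Polr2b shares 85 exon bases with Igfbp7 on the opposite strand and had a log2 fold change of 0.02 (SE 0.07).

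Igfbp3 and Igfbp4 differed less. IGFBP3 is the main carrier of IGFs in blood, and its gene lies on chromosome 11 from 7206086 to 7213923 (ENSMUSG00000020427.11). Igfbp3 had 115 and 81.7 CPM in DPPIV- and 88.1 and 64.6 CPM in DPPIV+ FAPs of mouse 1 and mouse 2. The DPPIV+ library was lower within each mouse, but the groups overlapped, and mouse 1 was above mouse 2 in each cell type. The log2 fold change was -0.36 (SE 0.07, adjusted p = 3.64e-07), and the adjusted p was 0.260 in edgeR's test without the mouse term. IGFBP4 mostly holds IGFs back from their receptor, and its gene lies on chromosome 11 from 99041244 to 99054392 (ENSMUSG00000017493.12). Igfbp4 had 1732 and 1572 CPM in DPPIV- and 2050 and 1781 CPM in DPPIV+ FAPs. This difference, a log2 fold change of 0.21 (SE 0.07, adjusted p = 0.0142), was the smallest among the tested members, and 39.6% of all tested genes had a larger absolute one. The adjusted p of Igfbp4 was 0.0633 in DESeq2's Wald test and 0.247 in edgeR's test without the mouse term.

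Igfbp2 (ENSMUSG00000039323.18, chromosome 1 from 72824503 to 72852474) was at the edge of detection, where mouse 1 gave 2 reads from each cell type, and mouse 2 gave 1 from DPPIV- and 2 from DPPIV+ FAPs. All of these are at or below 3 counts, the limit that a count of 0 allows, so no fold is given. Its neighbour Igfbp5, 5457 bases away, had between 42811 and 110266 reads in the same libraries. A similar contrast held on chromosome 11, where Igfbp1 had 0 reads in every library and Igfbp3, 3539 bases away, had between 1178 and 2399.

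Sequence upstream of the start is shown for Igfbp5, Igfbp6 and Igfbp7, the binding proteins that changed most. The 250 bases before the RefSeq start (GRCm38.p6) are printed 5′ to 3′ along the gene, for Igfbp5 at chr1:72874866-72875115 (minus strand), Igfbp6 at chr15:102143936-102144185 (plus strand) and Igfbp7 at chr5:77408046-77408295 (minus strand). Capitals mark matches on either strand to 3 motifs, the TATA box TATAAA, the GC box GGGCGG and the AP-1 motif TGANTCA, and no match overlaps another in these windows. The 3′ end of the Igfbp5 window lies in the first exon of the GENCODE model. The Igfbp6 window ends at 102144185, upstream of the GENCODE start at 102144362, so its distances hold for the RefSeq start only.
Igfbp5: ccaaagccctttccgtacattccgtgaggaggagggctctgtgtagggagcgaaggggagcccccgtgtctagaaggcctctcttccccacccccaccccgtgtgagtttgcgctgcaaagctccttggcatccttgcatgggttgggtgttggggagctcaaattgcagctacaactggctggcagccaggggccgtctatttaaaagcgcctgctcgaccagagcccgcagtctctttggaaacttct
Igfbp6: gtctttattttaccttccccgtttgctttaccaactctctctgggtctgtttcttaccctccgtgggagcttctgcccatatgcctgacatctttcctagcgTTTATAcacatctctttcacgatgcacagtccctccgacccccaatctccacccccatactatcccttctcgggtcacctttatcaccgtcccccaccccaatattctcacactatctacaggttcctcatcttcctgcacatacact
Igfbp7: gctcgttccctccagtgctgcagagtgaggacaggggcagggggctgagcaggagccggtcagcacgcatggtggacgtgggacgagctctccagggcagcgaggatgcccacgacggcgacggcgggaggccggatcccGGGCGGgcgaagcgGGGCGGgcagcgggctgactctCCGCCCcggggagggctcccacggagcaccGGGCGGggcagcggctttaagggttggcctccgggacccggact
Igfbp7 held 4 GC boxes and 26 CpG dinucleotides in a window with 74.0% G and C. Igfbp5 held no exact match to the 3 motifs, and variants of their letters were not searched. Its window had 10 CpG and 58.8% G and C. Igfbp6 held a match to the TATA box on the opposite strand, printed as TTTATA, 148 bases before the RefSeq start. Its window had 7 CpG and 49.6% G and C. Over all 32851 promoter windows of this length in the RefSeq table, 12.4% held the TATA box, 32.7% the GC box and 6.75% the AP-1 motif. Among the other members, the TATA box was found in Igfbp4, 28 bases before the start, the GC box in Igf1r (2 matches), Igfbp2 (3 matches) and Igf2 (2 and 1 matches in separate windows), and the AP-1 motif in Igf1 (1 match) and in another window of Igfbp2 (1 match). These are matches of letters and no record of binding. Among the other tested members, G and C made up 77.6% of the window in Igf1r and 69.2% in Igfbp4, which both rose. The share was 52.8% in Igf1, 73.2% in Igfbp3 and 47.6% to 68.8% in the windows of Igf2, all of which fell. A link between these windows and the direction of change was not tested.

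Levels of different genes were compared as CPM per kilobase of merged exons (GENCODE M21). In DPPIV- FAPs the order of mean levels was Igfbp7 (1006 ± 49.0, SD, n = 2), Igfbp6 (909 ± 91.0), Igfbp4 (374 ± 25.6), Igfbp5 (371 ± 43.5), Igf1 (39.7 ± 6.82), Igfbp3 (31.4 ± 7.43), Igf2 (9.94 ± 0.767) and Igf1r (3.40 ± 0.187). The libraries of Igfbp7 and Igfbp6, of Igfbp4 and Igfbp5, and of Igf1 and Igfbp3 overlapped. Igfbp7 was above Igfbp6 within each mouse, whereas Igfbp4 and Igfbp5, and Igf1 and Igfbp3, changed order between the mice, so those neighbours were not ordered beyond their spread. In DPPIV+ FAPs the order of CPM per kilobase became Igfbp6 (1671 ± 3.23), Igfbp5 (955 ± 91.9), Igfbp4 (434 ± 43.0), Igfbp7 (431 ± 26.9), Igfbp3 (24.4 ± 5.31), Igf1 (18.7 ± 3.86), Igf1r (4.38 ± 0.219) and Igf2 (3.74 ± 0.530). Here Igfbp4 overlapped with Igfbp7 and Igfbp3 with Igf1, and both pairs changed order between the mice. Igfbp7 was thus above Igfbp5 in both DPPIV- libraries and below it in both DPPIV+ libraries, and Igf1r passed Igf2.

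Summed over Igfbp2 to Igfbp7, binding protein RNA was 2784 and 2601 CPM per kilobase in DPPIV- and 3593 and 3437 in DPPIV+ FAPs of mouse 1 and mouse 2. The sum was 1.29 and 1.32 times as high in DPPIV+ FAPs within the mice, while its make-up changed more. Igfbp5 made up 12.2% and 15.5% of the sum in DPPIV- and 28.4% and 25.9% in DPPIV+ libraries, and Igfbp6 went from 35.0% and 32.5% to 46.4% and 48.7%. Igfbp7 went from 37.4% in each DPPIV- library to 11.5% and 13.1%, and Igfbp4 stayed between 11.7% and 14.1%. The ligands Igf1 and Igf2 together were 44.3 and 55.01 CPM per kilobase in DPPIV- and 20.1 and 24.8 in DPPIV+ FAPs, with Igf1 at 78.8% to 86.4% of that sum. Binding protein RNA was therefore 62.9 and 47.3 times the ligand RNA per kilobase in DPPIV- FAPs and 179 and 139 times in DPPIV+ FAPs, a ratio of RNA levels that says nothing of protein amounts. No test was made on these sums and shares.

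**Figure D2:**
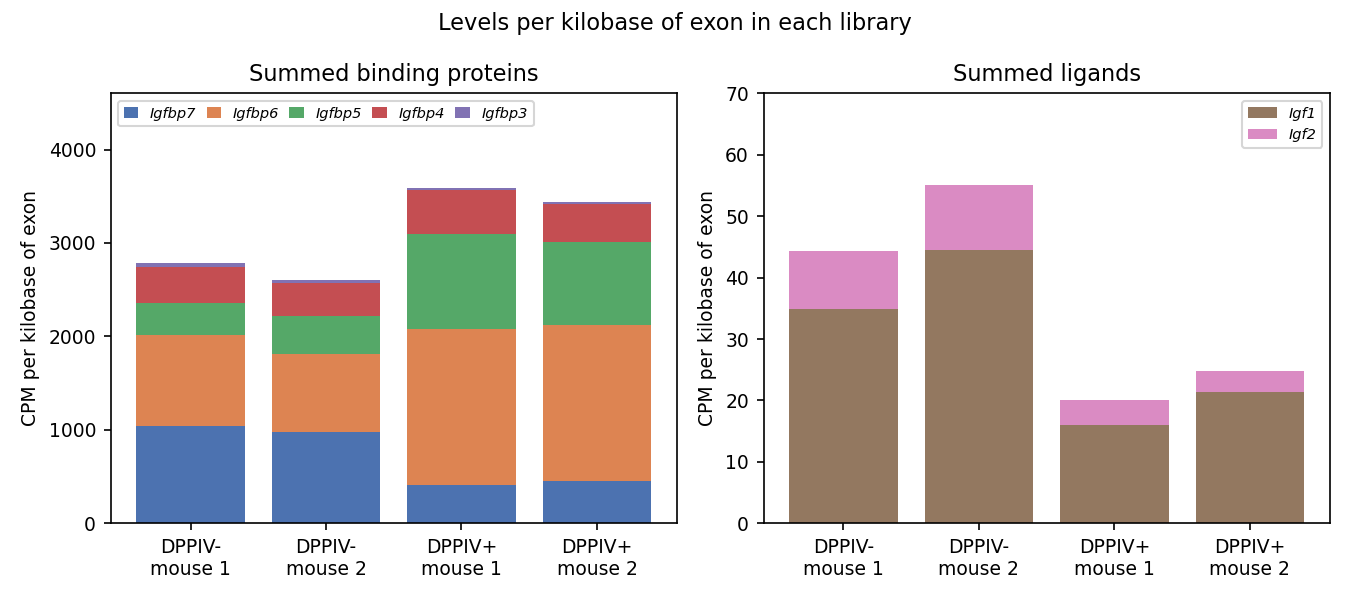
CPM per kilobase of exon (y axes, from 0) in each library, stacked over the binding proteins (left; Igfbp2 is too low to draw) and over the ligands (right). The binding protein bars are taller in DPPIV+ FAPs (3593 and 3437) than in DPPIV- FAPs (2784 and 2601) with more Igfbp5 and Igfbp6 and less Igfbp7, and the ligand bars are lower (20.1 and 24.8 against 44.3 and 55.01).

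Other genes of the system outside the cell were read from a list of 11 partners and receptors, of which 6 were tested, 1 rose, 2 fell and 3 did not pass the threshold, against 15.9% of all tested genes that rose and 17.2% that fell. The median log2 fold change of the 6 was -0.11. Pappa and Pappa2 encode the related metalloproteases PAPP-A and PAPP-A2, which cut IGF binding proteins. Pappa had 31.7 and 29.0 CPM in DPPIV- against 4.998 and 4.44 CPM in DPPIV+ FAPs of mouse 1 and mouse 2. Its DPPIV- level was 6.42 times the DPPIV+ level (log2 fold change -2.68, SE 0.13, adjusted p = 2.10e-87), a larger difference than that of any member. Pappa2 had 11.6 and 16.5 CPM in DPPIV- and 24.2 and 47.6 CPM in DPPIV+ FAPs, a fold of 2.50 (log2 fold change 1.32, SE 0.10, adjusted p = 1.71e-37). Tenocyte genes were also highest in the DPPIV+ library of mouse 2, with Fmod at 689 CPM in mouse 1 and 1444 CPM in mouse 2 and Tnmd at 53.0 and 89.5 CPM, and their part in the rise of Pappa2 was not tested. Per kilobase, Pappa was thus 2.55 and 1.65 times Pappa2 in DPPIV- libraries and 0.193 and 0.0871 times in DPPIV+ libraries.

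Igf2r, a receptor that takes up and clears IGF2, was slightly lower, with 495 and 545 CPM in DPPIV- and 405 and 462 CPM in DPPIV+ FAPs (fitted log2 fold change -0.26, SE 0.07, adjusted p = 0.000555, and 0.133 in edgeR's test without the mouse term). The insulin receptor gene Insr had a log2 fold change of 0.05 (SE 0.08), with ratios of 0.22 and -0.13 in the mice, and did not pass. Neither did Htra1, a serine protease reported to cut IGF binding proteins (0.09, SE 0.07), or Stc2, an inhibitor of the PAPP-A proteases (-0.61, SE 0.29). Igfals, Insrr and Stc1 were below the filter, and Igfbp1 and Igfbpl1 had 0 reads in every library.

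**Figure D3:**
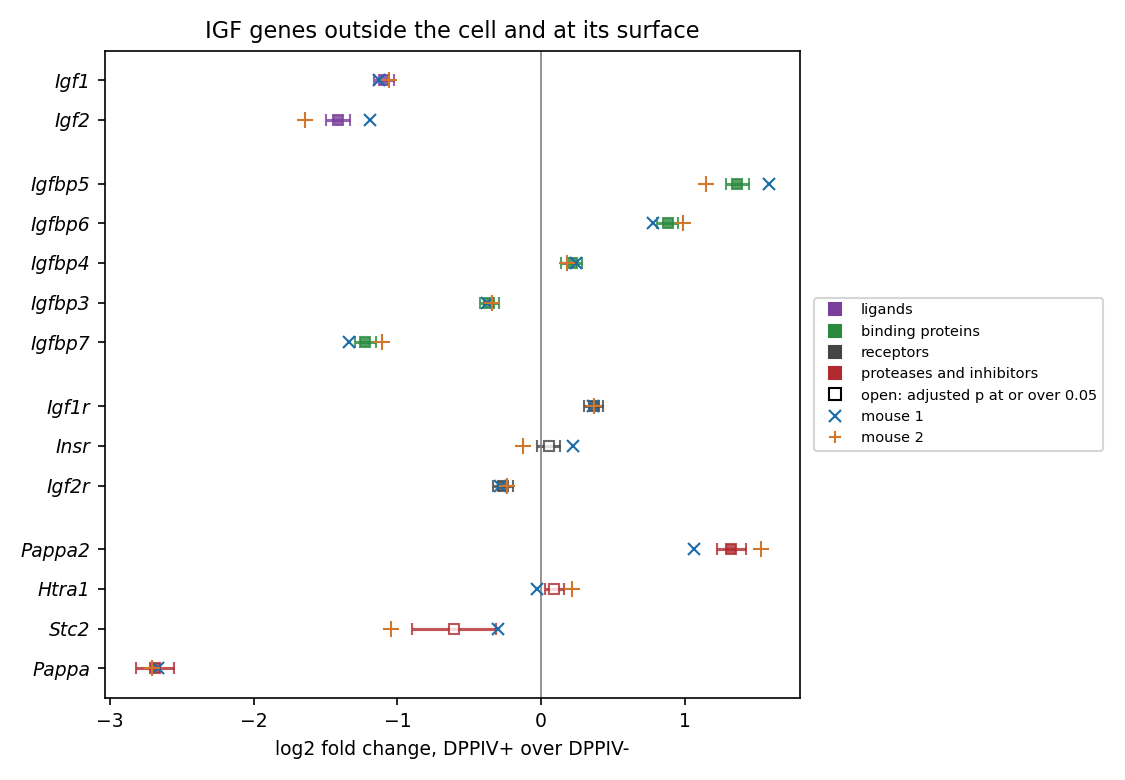
Log2 fold change of DPPIV+ over DPPIV- FAPs (x axis) for tested IGF ligands, binding proteins, receptors, proteases and inhibitors, as squares with the standard error as bars (filled where the adjusted p was under 0.05) and crosses for the ratio in each mouse. Pappa lies farthest left at -2.68, Igfbp5 (1.36) and Pappa2 (1.32) farthest right, and Insr, Htra1 and Stc2 are open.

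Genes that carry the signal inside the cell differed less. Of 24 listed genes 22 were tested, 3 rose and 7 fell, and 12 did not pass the threshold, with a median log2 fold change of -0.12, where 15.9% of all tested genes rose and 17.2% fell. Irs1, the adaptor that IGF1R phosphorylates, had 70.6 and 87.1 CPM in DPPIV- and 47.7 and 60.8 CPM in DPPIV+ FAPs (fitted log2 fold change -0.54, SE 0.07, adjusted p = 2.28e-14). Irs3 (-0.83) and Irs2 (-0.17) were lower too, as were Pik3r1 (-0.31), a regulatory subunit of PI3 kinase, and Foxo3 (-0.31). The genes that rose were Foxo1 (0.38), a transcription factor that AKT keeps out of the nucleus, Pdpk1 (0.26) and Pik3r2 (0.17). In DESeq2's Wald test 1 of these rises, Foxo1, and 3 of the falls, Irs1 and Pik3r1 among them, were past the threshold, a share of the 22 near the 16.6% of all tested genes. Irs3 (adjusted p = 0.0800), Foxo3 (0.178) and Irs2 (0.602) did not pass in that test. Akt1 and Akt2 had log2 fold changes of -0.04 and 0.10 (SE 0.07 for each).

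In the growth hormone axis, which drives Igf1 in many tissues, 2 of 6 tested genes fell and 4 did not pass the threshold (median log2 fold change -0.06). Over all tested genes 17.2% fell and 15.9% rose, and 33.0% passed in either direction. The receptor gene Ghr had 57.9 and 53.6 CPM in DPPIV- and 38.2 and 38.3 CPM in DPPIV+ FAPs (fitted log2 fold change -0.54, SE 0.08, adjusted p = 5.92e-12). Cish, a target of growth hormone signalling, had a log2 fold change of -0.62 (SE 0.23, adjusted p = 0.0210, and 0.431 in DESeq2's Wald test). Jak2, Stat5a, Stat5b and Socs2, with log2 fold changes from -0.08 to 0.14, did not pass.

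**Figure D4:**
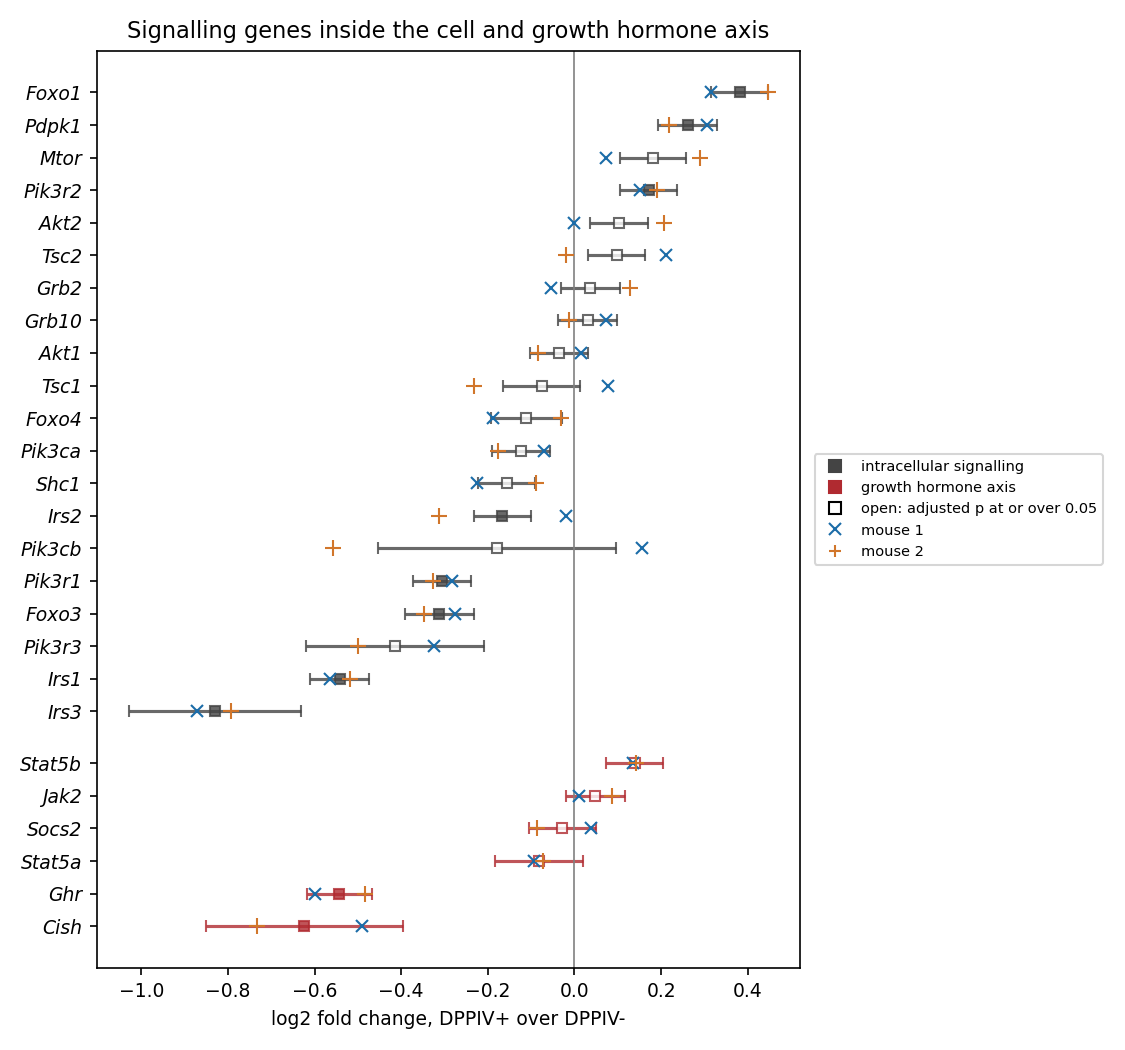
Log2 fold change of DPPIV+ over DPPIV- FAPs (x axis) for genes of IGF signalling inside the cell and of the growth hormone axis, drawn as squares with standard errors (filled where the adjusted p was under 0.05) and crosses for the ratio in each mouse. The fitted values, drawn as squares, lie between -0.83 (Irs3) and 0.38 (Foxo1), a narrower range than that of the ligands and binding proteins.

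Near Igf2, the imprinted non-coding gene H19, 72622 bases away and expressed from the other parental chromosome, also fell, from 256 and 392 CPM in DPPIV- to 169 and 180 CPM in DPPIV+ FAPs (fitted log2 fold change -0.86, SE 0.07, adjusted p = 3.70e-35). Of the 8 genes listed for the Igf2 locus and IGF RNA regulation 3 were tested: H19 fell, the transcription factor gene Plagl1 rose (0.37, SE 0.07) and Igf2bp2 did not pass (0.02, SE 0.13). Ins2 had between 0 and 3 reads per library, and Igf2bp1 had 0 in all.

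Between the mice, Igf1 and Igfbp3 differed and the other 6 tested members did not pass the threshold, against 8.98% of all tested genes that passed. Igf1 was higher in mouse 2 by 0.39 on the log2 scale (SE 0.07, adjusted p = 8.45e-07), and Igfbp3 had a log2 fold change of -0.47 for mouse 2 over mouse 1 (SE 0.07, adjusted p = 2.02e-10). Whether the difference between the cell types itself differed between the mice was not tested, since each mouse gave 1 library per cell type.

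The genes most like Igf1, Igf2 and Igfbp5 over the 4 libraries were found by the root mean square difference of log2 CPM, centred on each gene's mean, among 6581 other tested genes with at least 20 CPM. For Igf1 these were Ptpn14 (0.0248), Fxyd6 (0.0409) and Pdzrn3 (0.0413). Igf2 was most like Col27a1 (0.0636), Col23a1 (0.0758) and Ucp2 (0.0857). For Igfbp5 the list was Creb5 (0.0630), Anks1 (0.0757) and Osr2 (0.0764). All libraries share the same sort and the same 2 mice, and likeness over 4 libraries is a description.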

How the data were processed

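Bulk RNA sequencing was performed on DPPIV- and DPPIV+ FAPs from 2 mice. The authors deposited raw read counts per gene symbol, made by RnaReadCounter from STAR alignments to mm10 after demultiplexing in bcl2fastq2 (2.20). The annotation release and the strand setting of the counting are not given in the sources used here. The labels name tibialis anterior and the NEBNext Ultra II kit, the methods both hindlimbs and the TruSeq kit.

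A gene entered the fit if 2 or more libraries reached 2 CPM. Libraries were scaled by TMM. DPPIV+ was set against DPPIV- by edgeR's quasi-likelihood F test, which is two-sided, in a fit whose terms were mouse and cell type. P-values were adjusted by Benjamini-Hochberg over the 11588 genes fitted, with a threshold of 0.05 (R 4.3.3, edgeR 4.0.16, limma 3.58.1, DESeq2 1.42.0, Python 3.11.15). The model leaves 1 residual degree of freedom, and the prior degrees of freedom were infinite, so the spread was read from the trend over abundance rather than from each gene, and the p-values of abundant genes are very small. The standard errors and p-values of edgeR therefore do not measure the spread of a single gene between the 2 mice. The standard error is the log2 fold change over the square root of F, ratios within a mouse used a prior count of 0.125, and SD is over 2 mice. The labels tie each mouse to both of its libraries. Deviations of the mice correlated across genes between the cell types (0.435), and counts of the mice differed beyond sampling noise (chi-square per gene 12.8 in DPPIV- and 9.50 in DPPIV+ FAPs). Limits from 3 counts, 0.143 to 0.167 CPM per library, cover counting error only.

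Positions and exon lengths were taken from GENCODE M21 (GRCm38, the build of mm10). Promoter windows came from RefSeq (GRCm38.p6), and 9 of the 9 members matched. The fit was tested before use on simulated counts with the same dispersion for all genes and no difference between the mice. It could not show how such differences affect the error. The members and gene lists were chosen with earlier results of these data known. All members, listed genes that passed or that a result turns on (apart from some that are not reported here), and the 3 genes nearest to Igf1, Igf2 and the binding protein with the highest mean CPM are named.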

Additional observations from a re-analysis of the deposited data

How the results depend on the processing

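The 8 tested members kept their direction under DESeq2's Wald test, no mouse term, RLE and upper-quartile factors, library totals, no filter, 2 CPM in at least 3 libraries, robust moderation and each mouse left out. Igf1, Igf2, Igf1r, Igfbp5, Igfbp6 and Igfbp7 also stayed past the threshold in every test. Without the replicate block (mouse), Igfbp3 (log2 fold change -0.36, adjusted p = 0.260) and Igfbp4 (0.21, adjusted p = 0.247) did not pass, and the block changed no other member's call. Igfbp4 also missed it in DESeq2 (0.21, adjusted p = 0.0633) and with upper-quartile factors in edgeR (0.17, adjusted p = 0.0689). Genes called higher and lower went from 1837 and 1989 to 923 and 995 in DESeq2 and to 1001 and 1119 without the block. For signalling inside the cell, 3 higher and 7 lower became 1 and 3 in DESeq2 and 1 and 4 without the block, the growth hormone axis went from 2 lower to 1 in each, and the partners and receptors from 2 lower to 1 without the block. Between the mice, 1041 genes passed in edgeR, 110 in DESeq2 and 617 with library totals. The cause was not tested. With 1 mouse left out, no test was run, since no residual degree of freedom is left. The longest transcript in place of merged exons left the order of levels the same in both cell types and raised Igf1 most in CPM per kilobase among the ligands (55.8 and 26.2 in DPPIV- and DPPIV+ FAPs). Igf2 became 12.1 and 4.53, and the summed binding proteins 2766 and 3592. The ligands thus rose by a larger factor than the binding proteins, and the ratio of binding protein to ligand RNA was lower than with merged exons. With 2 mice, differences as small as that of Igfbp4 are at the limit of what these libraries show.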
